A study of Mus musculus with 8 samples.

Results

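The mitochondrial DNA (mtDNA)-encoded transcripts are the rows of the liver count table whose mouse symbol begins with mt-, and 37 of the 46078 genes in the table met that rule. They comprised 13 protein-coding genes, 2 ribosomal RNA (rRNA) genes and 22 transfer RNA (tRNA) genes. Protein-coding genes are called mRNAs below, also where they share bases. The data are poly(A)-selected RNA-seq read counts from whole livers of fasted mice in 2 groups, 5 wild-type (WT) mice and 3 mice with knockout of Rbfox2, an RNA-binding regulator of alternative splicing (Rbfox2 KO). All 8 mice drank water with 30% (w/v) fructose for 22 weeks. The study's methods describe mice placed on diet at 8 weeks of age, males unless otherwise stated. The study bred Rbfox2 LoxP/LoxP mice with the Albumin-cre transgene, whose promoter is active in hepatocytes, so other liver cells can keep the gene. Its wild-type controls carried the same LoxP/LoxP alleles without Cre.

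Library totals ran from 24829693 to 37823155 counts. Rbfox2 was at 18.9 ± 3.39 CPM (counts per 1000000 after scaling; SD, n = 5) in the WT livers and 9.28 ± 2.84 CPM (n = 3) in the knockouts. The groups did not overlap, and the log2 fold change was -1.03 ± 0.21 (SE; edgeR adjusted p = 0.328). All 8 hepatocyte markers were detected in every library, with a summed level of 70142 to 85828 CPM. Rbfox2 KO 1 stood apart from the other 7 libraries. Its sum over 12 pancreatic acinar markers was 455 CPM against 4.82 to 17.2 CPM elsewhere, its erythroid sum was 2107 CPM against 741 to 1459 CPM, and major urinary protein (Mup) genes took 6.54% of its counts against 17.8 to 35.3%. A sum over 10 skeletal muscle markers was 378 CPM in WT 5, 267 CPM in WT 4 and 218 CPM in Rbfox2 KO 1, and 1.30 to 45.6 CPM in the other libraries. In whole tissue, fewer cells of a type and less RNA per cell cannot be told apart.

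The mouse mitochondrial genome is a small circle, present in many copies per cell, that is read from both strands into long precursors. tRNAs lie between most of the longer genes, and their excision releases the mRNAs and rRNAs. The 13 proteins are core subunits of respiratory complexes I, III and IV and of the ATP synthase, and all other subunits come from nuclear genes. Mitochondrial mRNAs carry short poly(A) tails, which for several genes also complete the stop codon.

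In the GRCm38 annotation (GENCODE M21), 28 of the 37 genes lay on the plus strand of chromosome M, and mt-Nd6 and 8 tRNA genes lay on the minus strand. The ends of mt-Co3 (cytochrome oxidase subunit 3), mt-Nd4 (complex I) and mt-Cytb (the complex III cytochrome b) are shown because these 3 messages end in a lone T, in capitals, that becomes a stop codon only with the first bases of a tail. The end of mt-Co1 is shown beside them with its complete stop codon in capitals. They lie on the plus strand at chrM:9367-9390, chrM:11521-11544, chrM:15265-15288 and chrM:6849-6872.
mt-Co3: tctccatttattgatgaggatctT
mt-Nd4: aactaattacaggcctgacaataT
mt-Cytb: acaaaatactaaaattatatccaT
mt-Co1: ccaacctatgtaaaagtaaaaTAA

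Several genes share bases, which bears on how reads can be assigned. mt-Atp8 and mt-Atp6, both ATP synthase subunits, share 43 bases, mt-Nd4l and mt-Nd4 share 7, and mt-Nd5 and mt-Nd6 share 14 on opposite strands. The 3′ end of mt-Nd4l is shown with the 7 bases it shares with mt-Nd4 in capitals (chrM:10144-10173, plus strand). These bases hold the start codon of mt-Nd4 and the stop codon of mt-Nd4l. The 3′ end of the serine tRNA mt-Ts1 is shown with the 3 bases that lie opposite the stop codon of mt-Co1 in capitals (chrM:6870-6899, minus strand), since this tRNA varied more than any other tested mtDNA gene.
mt-Nd4l/mt-Nd4: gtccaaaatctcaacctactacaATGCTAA
mt-Ts1: ttttagggggttcgattccttcctttcTTA

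mtDNA genes took 5.70 to 7.43% of all liver counts, with near-equal means in the groups. Their share was 7.24%, 7.43%, 5.70%, 6.71% and 6.62% in WT 1 to WT 5 and 6.64%, 6.41% and 7.15% in Rbfox2 KO 1 to 3. The means were 6.74 ± 0.675% (SD, n = 5) in WT and 6.73 ± 0.381% (n = 3) in Rbfox2 KO. Every Rbfox2 KO value lay inside the WT range. The depth made counting error small: the 95% Wilson interval was 5.69 to 5.70% in WT 3 and 7.42 to 7.44% in WT 2, and such intervals cover counting error only.

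The share depends on what else fills a library. In these livers the Mup genes, which encode abundant secreted liver proteins, took 6.54 to 35.3% of counts. How reads with several alignments were counted was not given in the sources used here. Mup shares and library totals may therefore hold reads counted at more than 1 gene. With 21 Mup genes left out of the total, the mtDNA share was 8.81 ± 0.505% in WT and 8.30 ± 1.19% in Rbfox2 KO. Rbfox2 KO 1 was then the lowest library, at 7.10%, and WT 3, the lowest before, moved to 8.80%. Rbfox2 KO 2 and 3 were at 8.31% and 9.49%, against 8.06 to 9.49% in WT, so the groups still overlapped.

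**Figure D1:**
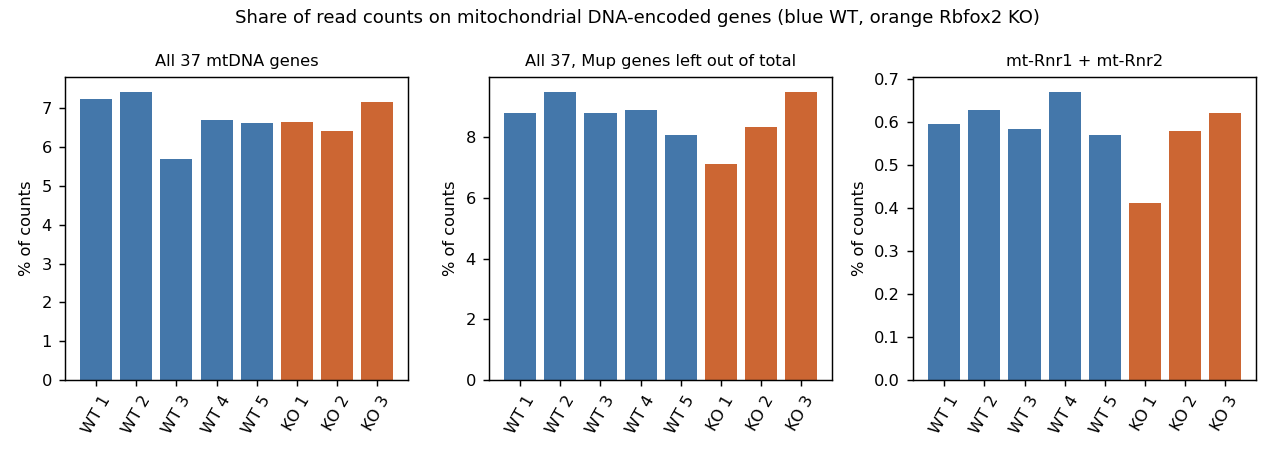
Bars give the percent of read counts in each of the 8 libraries (blue, WT; orange, Rbfox2 KO) on all 37 mtDNA genes, on the same genes with Mup genes left out of the total, and on both mtDNA rRNAs. The groups overlap in the first panel, and Rbfox2 KO 1 is the lowest library in the other two, at 7.10% and 0.411%.

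By class, protein-coding genes held 89.7 to 93.7% of mtDNA counts in every library. The 2 rRNA genes held 6.20 to 10.2%, and all tRNA genes together held 0.0301 to 0.0771%. Poly(A) selection precedes these values, so the rRNA and tRNA shares are shares of what passed selection.

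Levels of the 13 mRNAs were compared per length, as counts per kb in percent of the sum over the 13 genes. mt-Co2 (cytochrome oxidase subunit 2) was highest, with 17.8 ± 2.74% in WT. Its values were 22.4%, 16.5%, 17.8%, 17.2% and 15.2% in WT 1 to WT 5 and 18.8%, 18.8% and 14.4% in Rbfox2 KO 1 to 3. WT 1 was the highest library and Rbfox2 KO 3 the lowest.

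Over all 8 libraries the other complex IV subunits and mt-Atp6 followed, with means of 14.7% for mt-Co1, 14.5% for mt-Atp6 and 13.2% for mt-Co3. A second tier held mt-Cytb at 7.66%, mt-Nd2 at 7.52%, mt-Nd1 at 6.94% and mt-Atp8 at 5.30%. mt-Nd3 at 4.30%, mt-Nd4 at 4.25%, mt-Nd4l at 2.18% and mt-Nd5 at 1.57% came next, all of them complex I subunits. mt-Nd6, the complex I subunit on the other strand, was last at 0.250%. Several of the 13 genes have near-identical nuclear copies, described below, so their place relative to genes without a copy is uncertain.

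Only 3 of the 12 steps in this order held in 8 of 8 libraries: mt-Co3 above mt-Cytb, mt-Nd4 above mt-Nd4l, and mt-Nd5 above mt-Nd6. mt-Co1 exceeded mt-Atp6 in 4 of 8 libraries, mt-Co2 exceeded mt-Co1 in 6, and mt-Nd3 exceeded mt-Nd4 in 5, so these neighbours were not separated by the spread between libraries. mt-Atp8 was above mt-Nd3 in 5 of 8 and below mt-Nd1 in 5 of 8.

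**Figure D2:**
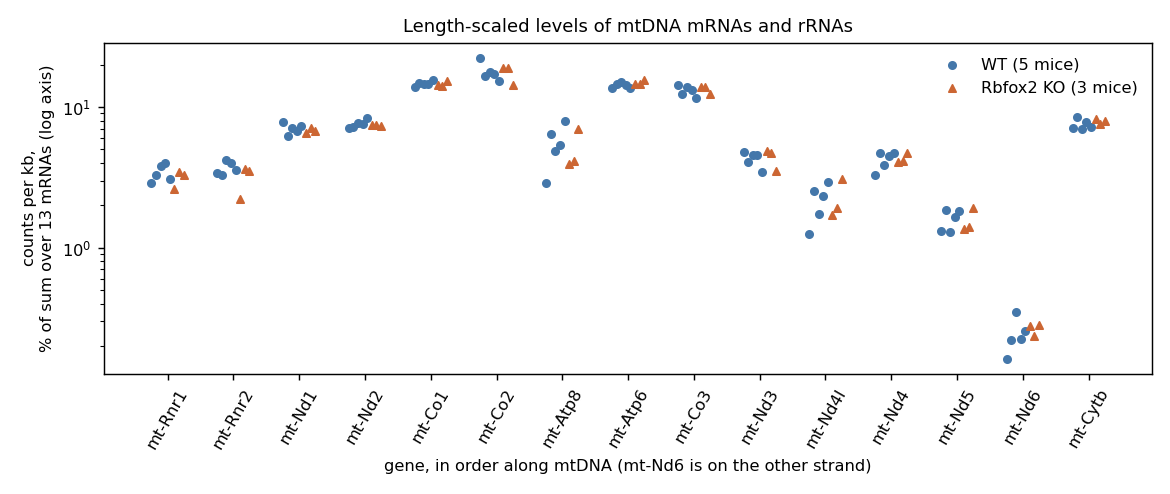
Counts per kb of the 13 mRNAs and 2 rRNAs, as percent of the sum over the 13 mRNAs (log axis), in gene order along mtDNA, with 1 point per library (blue circles, WT; orange triangles, Rbfox2 KO). mt-Co2, mt-Co1, mt-Atp6 and mt-Co3 are on top, mt-Nd6 is lowest at a mean of 0.250%, and mt-Atp8 and mt-Nd4l spread widely.

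mt-Nd6 had 62.7, 86.5, 124.9, 80.3 and 78.3 CPM in WT 1 to WT 5 and 77.3, 84.0 and 111.3 CPM in Rbfox2 KO 1 to 3. The highest and the lowest value were both WT. Its ratio to mt-Cytb, the gene next to it on the opposite strand, was 0.0147 ± 0.00481 in WT and 0.0153 ± 0.00103 in Rbfox2 KO. The log2 difference of 0.11 did not pass a two-sided exact permutation test over all 56 assignments of the genotypes (p = 0.714, and 0.714 after adjustment over the 2 ratios tested). The smallest p that the design allows is 0.0179.

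The rRNAs of the small (mt-Rnr1) and large (mt-Rnr2) mitochondrial ribosomal subunits are transcribed ahead of the mRNAs and were read at 3.40 ± 0.465% and 3.68 ± 0.384% per kb in WT, on the scale used for the mRNAs. mt-Rnr1 was at 2062, 2401, 2521, 2633 and 1725 CPM in WT 1 to WT 5 and at 1330, 2252 and 2376 CPM in Rbfox2 KO 1 to 3. mt-Rnr2 was at 3960, 3997, 4590, 4361 and 3327 CPM in WT and, in Rbfox2 KO, at 1876, 3899 and 4213 CPM. For both, Rbfox2 KO 1 was the lowest library and the other 2 Rbfox2 KO libraries lay within the WT range. The log2 fold changes were -0.19 ± 0.21 for mt-Rnr1 and -0.28 ± 0.25 for mt-Rnr2 (SE; edgeR adjusted p = 0.99997 for each). Without Rbfox2 KO 1 they were 0.02 and -0.00175.

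The mt-Rnr2 to mt-Rnr1 ratio was 1.80 ± 0.133 in WT and 1.64 ± 0.198 in Rbfox2 KO, where it was 1.41, 1.73 and 1.77. Rbfox2 KO 1 was the only library under the WT minimum of 1.66. The difference, -0.14 on the log2 scale, did not pass the exact permutation test (two-sided p = 0.214, adjusted over the 2 ratios 0.429). Without Rbfox2 KO 1 it was -0.03 on the log2 scale.

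No mtDNA gene passed the test between the genotypes in the fit across all tested genes. Of the 37 genes, 23 had enough counts to be tested: all 13 mRNAs, both rRNAs and 8 tRNAs. edgeR's quasi-likelihood test with Benjamini-Hochberg adjustment over 14654 genes called 0 of the 23 at adjusted p under 0.05, where 0% of all tested genes were called. At an unadjusted p under 0.05 edgeR called 0 of the 23 against 4.74% of all genes, and the smallest unadjusted p among them was 0.256. DESeq2, another count model, called 0 of the 23 against 0.412% of the genes to which it gave an adjusted p, and limma-voom also called 0. CPM did not overlap between the groups for 0 of the 23, against 3.71% of all tested genes (1.89% higher and 1.82% lower in Rbfox2 KO).

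The 13 mRNAs had log2 fold changes (Rbfox2 KO over WT) between -0.14 and 0.07, with a median of -0.07 beside 0.000953 for all tested genes. By sign, 11 were lower and 2 were higher. With library totals in place of TMM (trimmed mean of M-values) factors, 5 were lower and 8 higher, while the median of all genes moved to 0.12 and that of the 13 to 0.04. Relative to all genes, the 13 were at -0.07 by TMM and -0.08 by totals. Without Rbfox2 KO 1, 2 were lower and 11 higher with a median of 0.08. Rbfox2 KO 1 was the lowest library for 8 of the 13 mRNAs in CPM, and the part of its acinar, erythroid and Mup values in this was not tested. Its TMM factor, which lowers CPM as it rises, was 1.29 against 0.821 to 1.13 in the other libraries. As a share of all counts its mRNAs held 6.22%, inside the WT range of 5.11 to 6.80%.

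For mt-Co1, the core subunit of cytochrome oxidase, CPM were 16038, 17552, 15619, 15657 and 14238 in WT and 11879, 14942 and 18074 in Rbfox2 KO. The Rbfox2 KO group held both the lowest and the highest library. Its log2 fold change was -0.08 ± 0.18 (SE; edgeR adjusted p = 0.99997), with sign reversed by library totals, as 0.00611.

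mt-Nd2, a complex I subunit, was at 5455, 5722, 5576, 5494 and 5124 CPM in WT, and 4138, 5297 and 5774 CPM in the knockout libraries. It was the steadiest of the 13 mRNAs in WT, with a coefficient of variation (CV) of 4.03%. mt-Nd1, also a complex I subunit and the mRNA gene that precedes mt-Nd2 on the genome, was at 5572, 4531, 4701, 4474 and 4163 CPM in WT. In the knockout libraries mt-Nd1 was at 3334, 4674 and 4912 CPM. Both genes had their lowest value in Rbfox2 KO 1 and overlapped between groups.

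Across the WT mice the median CV of the 13 mRNAs was 15.4%, equal to the 15.4% of all tested genes and near the 13.4% of 107 other genes at 1000 CPM or more. mt-Atp8 was the most variable of the 13, at 29.3%.

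**Figure D3:**
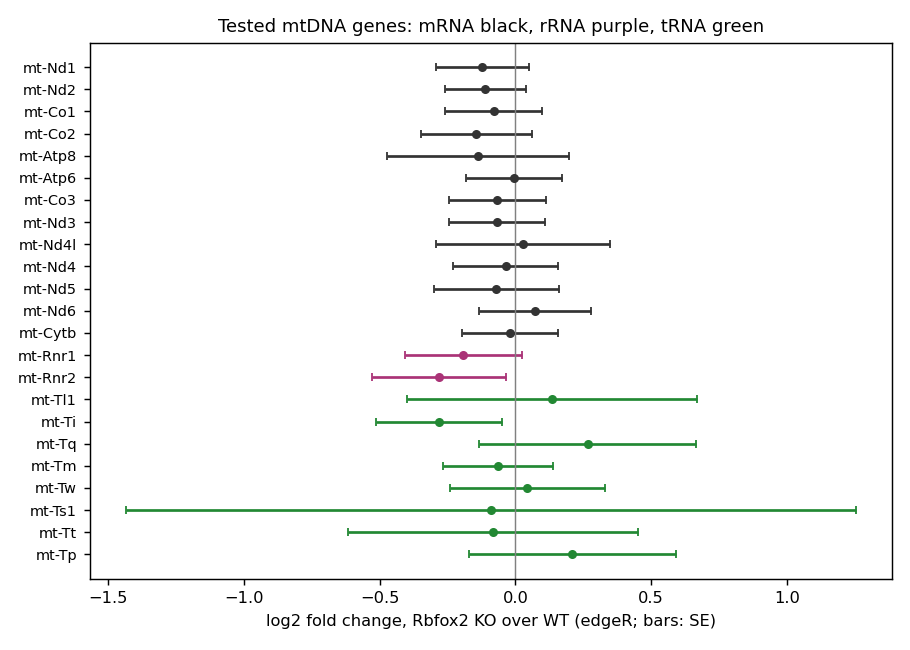
Log2 fold changes (Rbfox2 KO over WT, edgeR) of the 23 tested mtDNA genes, with standard errors as bars; mRNAs are black, rRNAs purple and tRNAs green. The mRNAs lie between -0.14 and 0.07, and the SE of mt-Ts1, 1.34, is the widest.

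The count ratios between mRNA genes given below differed far more among the libraries than between the genotype means. mt-Atp8 and mt-Nd4l, the shortest mRNA genes at 204 and 297 bases, and mt-Nd5, the longest at 1824, were singled out after their values were seen. mt-Atp8 had 6.36, 13.2, 9.58, 11.2 and 17.5 counts per 100 mt-Atp6 counts in WT 1 to WT 5 and 7.99, 8.55 and 13.4 in Rbfox2 KO 1 to 3. WT 5 was 2.75 times WT 1, and the genotypes overlapped.

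mt-Nd4l had 8.17, 11.5, 9.67, 11.1 and 13.4 counts per 100 mt-Nd4 counts in WT and 8.98, 9.96 and 14.0 in Rbfox2 KO. WT 1 was again lowest, and Rbfox2 KO 3 was highest. The same pair of libraries bounded mt-Nd5 per 100 mt-Co2 (15.6 to 35.5) and mt-Co1 per 100 mt-Co2 (140.7 to 240.7).

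WT 1, WT 3, Rbfox2 KO 1 and Rbfox2 KO 2 were the 4 lowest libraries in all 4 of these ratios, and WT 2, WT 4, WT 5 and Rbfox2 KO 3 the 4 highest. Both genotypes stood on each side. The ratios share libraries, and the second pair share mt-Co2. mt-Atp8 and mt-Atp6 share bases, as do mt-Nd4l and mt-Nd4, and the part of read assignment in their ratios was not tested. mt-Nd3 per 100 mt-Co3, also a short gene against a longer one, ran only from 12.6 to 15.6, and Rbfox2 KO 3 and WT 5 were its lowest libraries.

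Counts at a pseudogene that matches the end of mt-Co1 ran in the opposite order. Gm29216, a nuclear pseudogene on chr1:24615706-24616197 (minus strand), matches bases 1063 to 1545 of mt-Co1, the last 31.3% of the gene, at 99.8% identity. It had 47.6, 38.0, 43.9, 39.0 and 35.4 counts per 100 mt-Co1 counts in WT and 44.3, 43.4 and 34.0 in Rbfox2 KO. The 4 libraries lowest in the 4 ratios were the 4 highest here. mt-Co1 is the denominator here and the numerator of mt-Co1 per 100 mt-Co2, so part of the opposite order to that ratio is built in. Whether the reads at Gm29216 came from mt-Co1 was not tested.

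Nuclear transcript length moved along the same order. For 59 nuclear genes at 20 CPM or more whose longest annotated transcript is under 600 bases, the median log2 CPM relative to the gene's mean over the 8 libraries was 0.32, -0.06, 0.15, 0.03 and -0.30 in WT 1 to WT 5. It was 0.13, 0.19 and -0.40 in Rbfox2 KO 1 to 3. The same 4 libraries, WT 1, WT 3, Rbfox2 KO 1 and Rbfox2 KO 2, were the 4 highest. For 775 genes of 5000 bases or more the values ran from -0.19 in WT 1 to 0.14 in WT 5. The part of transcript length in the mtDNA ratios was not tested.

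**Figure D4:**
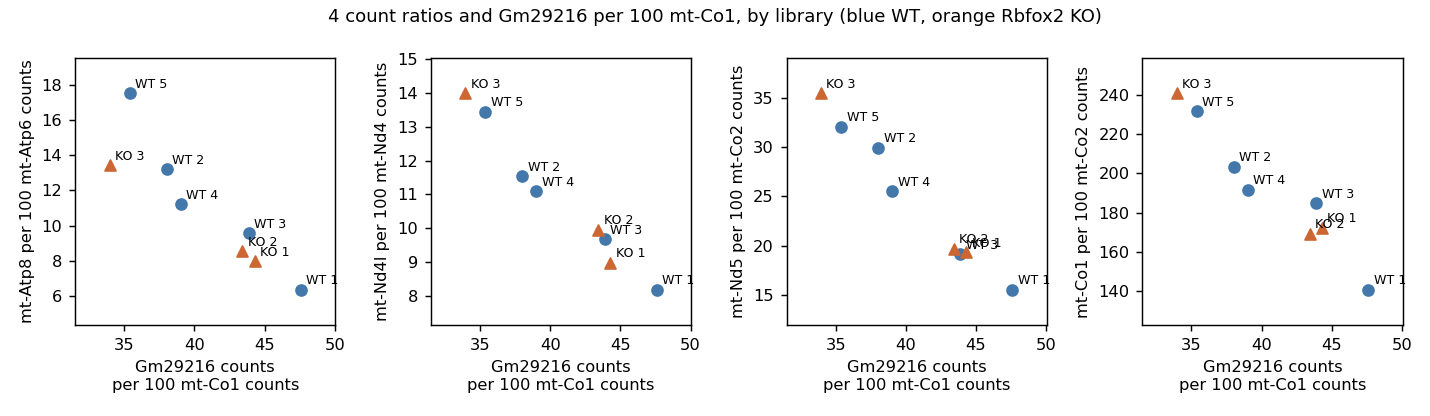
Each panel plots a ratio of 2 mtDNA mRNA counts (vertical axis) against Gm29216 counts per 100 mt-Co1 counts (horizontal axis), with 1 labelled point per library (blue circles, WT; orange triangles, Rbfox2 KO). WT 1 is at the lower right of every panel, with 47.6 on the horizontal axis, and Rbfox2 KO 3 and WT 5 are at the upper left.

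Counts of several mtDNA genes could not be separated from those of nuclear pseudogenes. A search of the mtDNA genes against GENCODE M21 transcripts (at least 95% identity over 200 bases) found 11 nuclear genes that matched 9 mtDNA genes. Of these, 7 lay at chr1:24611535-24616197 and 3 at chr2:22587291-22590533, all on the minus strand. The eleventh, Gm4076 on chromosome 13, was the only one with a mean under 10 counts. Together the 11 held 2.86 to 3.85% of all counts.

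Gm28661 is identical to mt-Co2 over 681 of its 684 bases, and its count was 99.2 to 99.9% of that of mt-Co2 in each library. Gm28437 had 99.98 to 102.6% of mt-Co3, Gm28438 had 98.4 to 100.01% of mt-Nd3, and Gm10222 had 98.1 to 99.2% of mt-Nd4l. Gm10925 had 109.7 to 114.5% of mt-Atp6, the gene that shares 43 bases with mt-Atp8. Gm28439, which matches the first 63.6% of mt-Nd4, had 48.9 to 54.4% of its count.

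The 3 chromosome 2 pseudogenes, of lower identity, had far fewer counts. Gm13340 (97.6% identical) had 1.10 to 2.68% of mt-Co1, and Gm13341 (95.9% identical) had 2.62 to 4.99% of mt-Co2. How reads with several alignments were counted was not given in the sources used here, so levels of these mtDNA genes relative to genes without a copy are uncertain. With the 11 added to the mtDNA genes, the share of counts was 10.05 ± 1.05% in WT and 10.09 ± 0.370% in Rbfox2 KO.

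**Figure D5:**
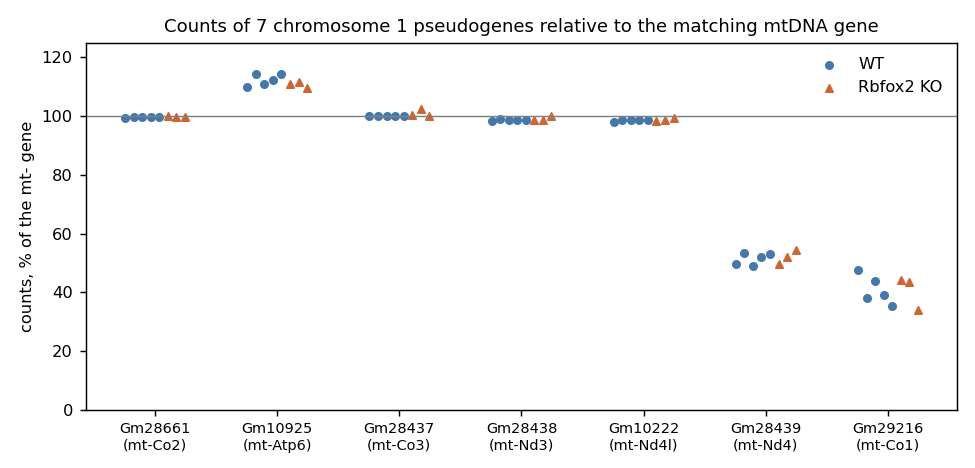
Counts of the 7 chromosome 1 pseudogenes as percent of the count of the matching mtDNA gene (in brackets), with 1 point per library (blue circles, WT; orange triangles, Rbfox2 KO) and a line at 100%. Gm28661, Gm28437, Gm28438 and Gm10222 sit at 98.1 to 102.6%, Gm10925 above them, and Gm28439 and Gm29216 near or under 54.4%.

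tRNAs deliver amino acids to the mitochondrial ribosome. With 59 to 75 bases they are shorter than the 100-base reads, and mature tRNAs carry no poly(A) tail. Of the 22 tRNA genes, 4 had 0 counts in all 8 libraries (mt-Tf, mt-Tn, mt-Tk and mt-Ts2), which allows a level of up to 0.0839 to 0.118 CPM by 3 counts per library. A further 10 were too low to test, and the remaining 8 were tested.

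mt-Ti, the isoleucine tRNA beside mt-Nd1, was the most abundant. It had 347, 435, 573, 551 and 479 counts in WT 1 to WT 5 and 270, 438 and 503 in Rbfox2 KO 1 to 3. Its log2 fold change was -0.28 ± 0.23 (SE), and its edgeR adjusted p was 0.99997. Rbfox2 KO 1 was the lowest library and the groups overlapped. The log2 fold change was -0.05 without Rbfox2 KO 1 and -0.51 without Rbfox2 KO 2.

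mt-Tm, the methionine tRNA that precedes mt-Nd2, had 93, 153, 101, 151 and 194 counts in WT and 141, 95 and 179 in Rbfox2 KO. The groups overlapped, and the sign of its log2 fold change of -0.06 turned with library totals, to 0.03.

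mt-Ts1, a serine tRNA on the strand opposite to mt-Co1, had 18, 5, 455, 539 and 194 counts in WT and 544, 79 and 110 in Rbfox2 KO. Per 100000 mt-Co1 counts it ran from 0.921 in WT 2 to 143.7 in Rbfox2 KO 1, and WT 2 and WT 1 were the 2 lowest libraries. Its CV over the 8 libraries was 97.2% in CPM. Its log2 fold change was -0.09 ± 1.34 (edgeR adjusted p = 0.99997), with sign reversed by library totals, as 0.26. Whether the counts used strand was not given in the sources used here, and without strand, reads of mt-Ts1 and of transcripts that run past the end of mt-Co1 cannot be told apart.

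The nuclear genes that replicate, transcribe, process and translate mtDNA were read from lists of 105 genes, of which 104 were tested. edgeR called 0 of the 104 at adjusted p under 0.05, against 0% of all tested genes. DESeq2 called 0, against 0.412% of the genes to which it gave an adjusted p. At an unadjusted p under 0.05, 2 were lower in Rbfox2 KO, against 2.33% of all genes, and 0 were higher, against 2.41%. By sign 72 were lower and 32 higher, with a median log2 fold change of -0.05.

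Tk2, the mitochondrial thymidine kinase that supplies precursors for mtDNA, was at 19.4, 17.5, 17.0, 19.4 and 15.8 CPM in WT, and 13.7, 15.7 and 15.0 CPM in the knockout libraries. The groups did not overlap, and its log2 fold change was -0.27 ± 0.10 (edgeR unadjusted p = 0.0275, adjusted 0.954). Trit1, which modifies tRNAs, was at 9.78 ± 1.68 CPM in WT against 7.54 ± 0.750 CPM in Rbfox2 KO (unadjusted p = 0.0320 by edgeR), with overlap. CPM of 3 of the 104 were lower without overlap, Tk2, the mitochondrial topoisomerase Top1mt and the membrane insertase Oxa1l, against 1.82% of all genes.

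Polrmt, the mitochondrial RNA polymerase, was at 11.5 ± 0.879 CPM in WT against 12.2 ± 0.181 CPM in Rbfox2 KO. Tfam, which packages mtDNA and opens its promoters, was at 43.3 ± 3.86 and 41.5 ± 1.77 CPM. Lrpprc, which stabilizes mitochondrial mRNAs, was at 82.6 ± 5.01 and 80.6 ± 10.3 CPM, and its partner Slirp at 19.4 ± 4.16 and 17.5 ± 3.22 CPM. All 4 overlapped between the groups.

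Among the 19 tRNA synthetases, Lars2, which charges the mitochondrial leucine tRNAs, was singled out after its values were seen. It was at 1370, 693, 344.9, 642.8 and 695.9 CPM in WT, and 595.2, 648.3 and 153.6 CPM in the knockout libraries, a wider range than the other 18 together, whose sum was 221.1 to 247.6 CPM. Its log2 fold change was -0.69 ± 0.55 (SE; edgeR adjusted p = 0.99997). Whether all counts at Lars2 came from the synthetase message was not tested.

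The nuclear subunits of the respiratory chain and ATP synthase were 78 genes by symbol. edgeR called 0 of them at adjusted p under 0.05, against 0% of all tested genes. At an unadjusted p under 0.05 it called 0, against 4.74%. By sign, 57 of these 78 genes were lower in Rbfox2 KO and 21 higher, with a median log2 fold change of -0.05 beside 0.000953 for all tested genes. Here too, values without Rbfox2 KO 1 are not given for the signs. The summed level of the 78 genes was highest in WT 1 (13741 CPM) and lowest in WT 5 (8944 CPM) and Rbfox2 KO 3 (9611 CPM). WT 1 was also highest, and WT 5 and Rbfox2 KO 3 lowest, for the nuclear genes under 600 bases above (0.32, -0.30 and -0.40). The part of transcript length in the sum of the 78 genes was not tested. In WT 1, WT 5 and Rbfox2 KO 3, in that order, the mtDNA mRNAs summed to 17738, 16419 and 20024 CPM for complex I and to 35813, 25800 and 32989 CPM for complex IV. mt-Cytb of complex III was at 6068, 4879 and 6879 CPM, and the ATP synthase pair summed to 7319, 6411 and 9121 CPM. WT 5 was the lowest of the 3 for each of these sums, as for the nuclear genes, and only for complex IV was WT 1 the highest of the 3. Over all 8 libraries, however, Rbfox2 KO 1 was lowest for complex I (13064.5 CPM), complex IV (24613 CPM) and the ATP synthase pair (5772 CPM). WT 5 was lowest for mt-Cytb alone. The nuclear sum of Rbfox2 KO 1 was 10802 CPM, inside the range of the other libraries.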

How the data were processed

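Liver RNA of fasted mice was poly(A)-selected and sequenced as 100-base paired reads, and the authors aligned the reads to GRCm38 with TopHat2 2.0.11 and counted them per Ensembl gene with featureCounts. CASAVA 1.8.4 is also listed in the submitters' processing notes. The deposited values are raw counts, with replicates not pooled. How multiple alignments and strand were treated in counting was not given in the sources used here.

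Groups came from the sample labels. Labels do not name separate cages or litters, so p-values measure the spread between these samples. Symbols came from GENCODE M21, which matched 45143 of the 46078 identifiers and all 37 mtDNA genes. edgeR 4.0.16 (R 4.3.3) with TMM factors, filterByExpr and the robust quasi-likelihood F test was fitted to all 8 samples with genotype as the only term, and p-values were adjusted over 14654 genes. CPM are scaled by TMM. DESeq2 1.42.0, limma 3.58.1 (voom), other scalings and filters, a replicate block and leaving out each sample were alternatives. The main edgeR fit, DESeq2 and limma-voom were tested on simulated data, and the other fits were not. Near-identical nuclear genes were found with blastn 2.17.0, and leaving them out was chosen after seeing the data. Sequences are GENCODE M21 transcripts.

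The members and gene lists were chosen with earlier results of these data known. Genes named were both rRNAs, the mRNAs with the highest and lowest counts per kb, mt-Nd6, up to 4 mRNAs of smallest p, tRNAs with a mean of at least 100 counts, and Polrmt, Tfam, Lrpprc, Slirp and the lowest-p machinery genes; mt-Atp8, mt-Nd4l, mt-Nd5 and Lars2 were added after their values were seen. The remaining machinery genes and the marker lists of other cell types were read as counts and sums. The mature protein and promoter sequences of mtDNA genes were not used here.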

Additional observations from a re-analysis of the deposited data

How the results depend on the processing

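Under every alternative run, 0 mtDNA genes and 0 machinery genes passed the threshold. Over all genes, the main fit called 0, DESeq2 called 59 and the fit with no filter on low counts called 6, none of them mtDNA genes. The median log2 fold change of the 13 mRNAs was -0.215 to 0.0846 when each sample was left out in turn, and the positive value came from leaving out Rbfox2 KO 1. The log2 difference of the mt-Nd6 to mt-Cytb ratio was -0.00542 to 0.274, with the negative value without WT 1, and that of the mt-Rnr2 to mt-Rnr1 ratio was -0.199 to -0.0341, nearest to 0 without Rbfox2 KO 1. Library totals turned the sign of mt-Co1 (0.00611), mt-Ts1 (0.256) and mt-Tm (0.0321). limma-voom turned mt-Ts1 (0.936) and mt-Nd4l (-0.0347).

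Left-out samples gave log2 fold changes of -0.342 to 0.0236 for mt-Rnr1, -0.215 to 0.0104 for mt-Nd2, -0.228 to 0.0264 for mt-Nd1, -0.239 to 0.0558 for mt-Co1, -0.487 to -0.00175 for mt-Rnr2, -0.250 to -0.0241 for mt-Co2, -0.512 to -0.0465 for mt-Ti, -1.42 to 0.463 for mt-Ts1, -0.171 to 0.0379 for mt-Tm, -0.605 to 0.110 for mt-Atp8, -0.425 to 0.285 for mt-Nd4l, -0.386 to 0.127 for mt-Nd5 and -0.102 to 0.240 for mt-Nd6. None had a call to lose. The cause was not tested.

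Samples with the same replicate number correlated at 0.0510 to 0.251 in their deviations from group means, and 2 of 6 samples correlated best with their own number, so the numbers were not taken to pair the samples. With the replicate block, edgeR called 0 genes, and genes with unadjusted p under 0.05 numbered 739 (694 with no block). The block turned mt-Ts1 (1.68) and mt-Tm (0.154).

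With 3 Rbfox2 KO samples, changes smaller than the spread between mice could not be seen. tRNA genes with a mean under 10 counts were too low to test. The parts of depth, gene length and poly(A) selection in their low counts were not tested.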
